A study of Gallus gallus with 2 samples.

Results

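The cells described here were limb bud mesenchyme cells of chicken (Gallus gallus) embryos, separated by whether they carried transcripts of LMX1B. Of 60000 cell barcodes in the table, 12336 held at least 4000 gene molecules with at most 20% of them from 13 mitochondrial genes. Of these, 1495 were selected on measured marker levels as limb bud mesenchyme, with PRRX1 at 1 or more, TBX4 and PITX1 together at 2 or more, and GATA4, GATA5 and FOXF1 together, and EPCAM alone, below 1 molecule per 10000. Both groups were then chosen by the measured LMX1B count. The LMX1B-positive group was the 943 limb cells with at least 2 LMX1B molecules. The LMX1B-negative group was the 286 limb cells with 0 LMX1B molecules and at least 20000 gene molecules in all. A further 164 limb cells held 1 LMX1B molecule and 102 held 0 at a lower depth, and these entered neither group.

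LMX1B is a LIM-homeodomain transcription factor of the dorsal limb bud mesenchyme. In the chick and mouse limb, WNT7A from the dorsal ectoderm keeps LMX1B on, while EN1 in the ventral ectoderm holds WNT7A off there, and loss of Lmx1b in the mouse gives the distal limb a ventral pattern on both sides. PRRX1 marks limb and other lateral mesenchyme, and TBX4 and PITX1 are transcription factors of the hindlimb. LMX1B is also known from the roof plate, the isthmus and other tissues, so its presence alone does not name a cell.

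The posterior end was dissected from embryos with 35 somites, at 72 h of incubation, and no genetic change is named. Embryos were either controls or had received 20 uL of homocysteine, an amino acid, at 19 mM or 0.5 mM. Cells were labelled with membrane-bound lipid barcodes, pooled and captured on BD Rhapsody, a microwell system. The labels tie no barcode to a treatment, so both groups mix control and treated embryos in unknown shares, and the barcodes SBC2, SBC3 and SBC7 are given side by side without being called treated or control. The number of embryos behind each barcode was not given in the sources used here.

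The pool was 1 sample without replicates, so no difference below carries a test, and intervals at 95% cover counting error only. Summed molecules came to 41350979 in LMX1B-positive cells and 10788988 in LMX1B-negative cells. The median cell held 37614 molecules in the LMX1B-positive group and 31910.5 in the LMX1B-negative group, with 6664 and 6215.5 detected genes and 12.4% and 13.3% mitochondrial molecules. Levels are CPM, the molecules of a gene per 1000000 gene molecules of the group, and a gene is called higher or lower past 1.5-fold. More than 1 lipid barcode above its background limit was found in 3.18% of LMX1B-positive and 1.75% of LMX1B-negative cells, and other doublets were not removed.

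The label was checked against limb genes that the selection did not use. The sum over 10 such genes was 2530 CPM in LMX1B-positive cells and 2397 CPM in LMX1B-negative cells, against 1473 CPM in all other cells past the limits. FGF10, the mesenchymal ligand that drives limb outgrowth, stood at 60.0 CPM in LMX1B-positive and 43.9 CPM in LMX1B-negative cells, and the homeodomain factor MSX1 at 230 and 179 CPM in the same order. None of the 8 that reached the level limit given below was past 1.5-fold. The sum of these genes was thus higher in both groups than in the other cells. MEIS2, the most abundant, was at 934 CPM in LMX1B-positive, 862 CPM in LMX1B-negative and 442 CPM in the other cells. TWIST1 was at 358, 337 and 140 CPM in that order, and the remaining genes are not set against the other cells here. The genes that the selection required were near equal between the groups. PRRX1 was at 1229 CPM in LMX1B-positive and 1280 CPM in LMX1B-negative cells, TBX4 at 92.8 and 102 CPM and PITX1 at 443 and 489 CPM in the same order. Of the genes it held low, EPCAM was at 12.0 and 11.4 CPM, GATA5 at 31.2 and 38.3 CPM and GATA4 at 1.43 and 2.04 CPM in that order. FOXF1 was at 1.48 CPM in LMX1B-positive and 3.15 CPM in LMX1B-negative cells, a log2 ratio of -1.10 (-1.72 to -0.45), from 61 and 34 molecules.

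LMX1B itself set the groups and is given as a description. It summed to 11138 molecules, 269 CPM, in the LMX1B-positive cells, with a median of 9 and a highest value of 52 molecules in a cell, and to 0 in the LMX1B-negative cells. The 93 cells just inside the limit, with 2 molecules, averaged 49.95 CPM, and the 164 cells just outside it, with 1 molecule, averaged 28.8 CPM. Barcodes with under 500 detected genes carried LMX1B at 84.9 CPM, and all cells past the limits outside the limb group carried 42.4 CPM. Levels in barcodes with under 500 genes are called free RNA here. Whether those barcodes hold RNA free in the wells or remains of cells was not tested. The averages of the cells with 1 and with 2 molecules lay below the level in the barcodes with under 500 genes. How much free RNA a cell held was not estimated, and its part in these counts was not tested. In all, 379 limb cells, 25.4%, held 12 or more LMX1B molecules. Over the barcodes, LMX1B-positive cells were 53 of 96 limb cells in SBC2, 526 of 753 in SBC3 and 138 of 209 in SBC7. These are shares of 55.2% (exact binomial interval 44.7 to 65.4), 69.9% (66.4 to 73.1) and 66.0% (59.2 to 72.4), and the remaining limb cells had no assigned barcode. Gene levels over all cells also count 226 LMX1B-positive and 88 LMX1B-negative cells without a barcode, whose levels are not given apart. The intervals count cells as independent and hold no spread between embryos. The limit is a raw count, and the median LMX1B-positive cell held 30337, 38465.5 and 50063 molecules in SBC2, SBC3 and SBC7. A difference in share between the barcodes was not tested.

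The factor's locus lies on chromosome 17 of GRCg7b, chr17:10665426-10802338 in the RefSeq annotation. Of the 5 nearest annotated genes with a column on each side of it, none was past 1.5-fold, and RALGPS1 lay under the level limit given next. The widest difference among the others was in MVB12B, a sorting-complex subunit, at 30.9 CPM in LMX1B-positive and 24.2 CPM in LMX1B-negative cells. PBX3, a homeodomain cofactor, stood at 44.7 and 37.4 CPM and the chaperone HSPA5 at 574 and 530 CPM in the same order. These annotated neighbours thus stayed within 1.5-fold, as did most genes, since 0.589% of all considered genes were higher and 1.17% lower. Columns with an identifier only had no position here, so any that lie near LMX1B were not covered.

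Few genes separated the groups. Among 8314 genes with a mean level of at least 10 CPM over both groups, 49 were higher in LMX1B-positive cells, 0.589% of those considered, and 97 were lower, 1.17%. The gene lists used here are short against these shares, so a list without a called gene is a description only. The median log2 ratio of LMX1B-positive over LMX1B-negative cells was 0.0039, and the 10th and 90th percentiles were -0.20 and 0.15. The same direction within the cells of SBC2, SBC3 and SBC7 was found for 33 of the 49 higher genes (0.397% of all considered) and 58 of the 97 lower genes (0.698%). At least 2-fold was reached by 14 higher and 23 lower genes, and 4-fold by 3 and 5. At a limit of 10% mitochondrial molecules, which left 109 LMX1B-positive and 12 LMX1B-negative cells, the counts were 454 and 613, and FGF7 and BMP5, lower in the full groups, had log2 ratios of 0.60 and 0.64.

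**Figure D1:**
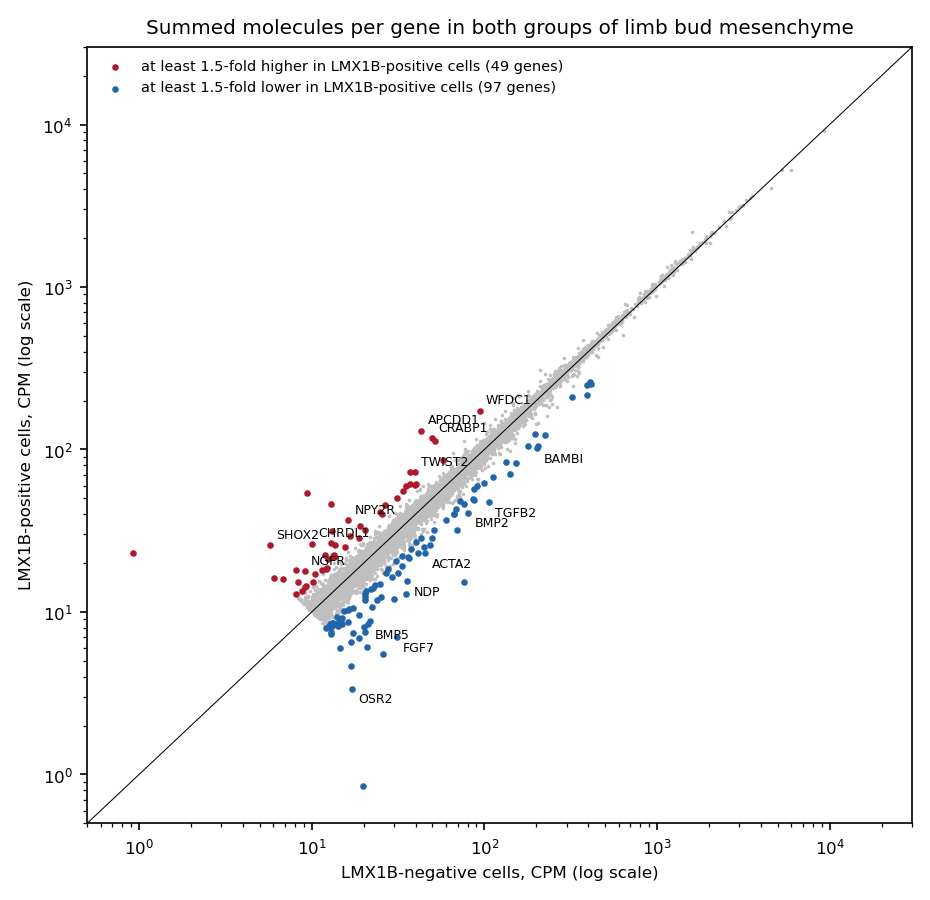
Level of each considered gene in LMX1B-positive cells (vertical axis, CPM, log scale) against LMX1B-negative cells (horizontal axis, CPM, log scale), with genes past 1.5-fold in colour, some of them named, and a line where both groups are equal. Most of the 8314 genes lie close to the line, with 49 called above it and 97 below.

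SHOX2, a homeobox factor needed for growth of the proximal limb skeleton in the mouse, had the highest ratio among the named genes with the same direction in the 3 barcodes. It stood at 35.2, 32.2 and 9.26 CPM in the LMX1B-positive cells of SBC2, SBC3 and SBC7, against 5.64, 5.66 and 2.35 CPM in the LMX1B-negative cells of those barcodes. Every LMX1B-positive value lay above every LMX1B-negative one, although SBC7 was low in both groups, with 4 molecules in its LMX1B-negative cells. Genes were named for their ratio, many also for a shared direction in the barcodes, which favours values without overlap. A lack of overlap, here and below, is thus a description, and its share over all considered genes was not counted. Over all cells the levels were 25.8 CPM in LMX1B-positive and 5.75 CPM in LMX1B-negative cells, a log2 ratio of 2.17 (1.80 to 2.56). SHOX2 was detected in 464 of the LMX1B-positive and 43 of the LMX1B-negative cells. MEIS2, a proximal factor and the most abundant gene of the list of factors along the shoulder-to-digit axis, did not follow it, at 934 CPM in LMX1B-positive and 862 CPM in LMX1B-negative cells.

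APCDD1, WIF1 and NOTUM, each known to damp WNT signals, were the 3 higher genes on the list of WNT targets, receptors and modulators. Other secreted WNT binders on it were near equal, with SFRP1 at 20.1 CPM in LMX1B-positive and 18.9 CPM in LMX1B-negative cells, SFRP2 at 64.9 and 71.3 CPM, FRZB at 44.2 and 40.4 CPM, and the DKK family member DKK3 at 29.0 and 32.2 CPM in the same order. APCDD1, a membrane inhibitor of WNT, stood at 93.4, 136 and 149 CPM in the LMX1B-positive cells of SBC2, SBC3 and SBC7, against 70.0, 41.2 and 63.9 CPM in the LMX1B-negative cells. The LMX1B-positive values were all above the LMX1B-negative ones, with the smallest gap in SBC2. Over all cells the level was 131 CPM in LMX1B-positive and 43.1 CPM in LMX1B-negative cells, a log2 ratio of 1.60 (1.46 to 1.74). WIF1, which binds WNT ligands outside the cell, was at 57.7, 54.1 and 47.7 CPM in the LMX1B-positive cells of the 3 barcodes, against 31.6, 35.4 and 37.5 CPM in the LMX1B-negative cells, with a log2 ratio of 0.69 over all cells. NOTUM, an enzyme that removes the lipid WNT needs, was at 27.1, 21.3 and 24.3 CPM in LMX1B-positive cells, against 9.03, 13.9 and 10.6 CPM in LMX1B-negative cells, with a log2 ratio of 0.77. In both genes the groups did not overlap.

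The 5 lower genes of the list were RSPO2, RSPO3, LGR5, FZD4 and DKK2, while the receptors LGR4, FZD1, FZD2, FZD7 and FZD10 were within 1.5-fold. RSPO2, a secreted protein that keeps WNT receptors at the surface, was at 61.7, 76.5 and 60.1 CPM in the LMX1B-positive cells of SBC2, SBC3 and SBC7, against 90.3, 137 and 108 CPM in the LMX1B-negative cells. Its groups did not overlap, and its log2 ratio over all cells was -0.73 (-0.83 to -0.64). Its relative RSPO3 stood at 125 CPM in LMX1B-positive and 197 CPM in LMX1B-negative cells, a log2 ratio of -0.66, but had a ratio of 0.10 in SBC2. LGR5, a receptor for the RSPO proteins, was at 7.33 CPM in LMX1B-positive and 13.0 CPM in LMX1B-negative cells, with no difference in SBC7 (log2 ratio 0.06). NDP, which encodes the secreted protein norrin, stood at 11.5, 15.9 and 14.1 CPM in the LMX1B-positive cells of the 3 barcodes, against 37.2, 37.0 and 23.5 CPM in the LMX1B-negative cells. These groups did not overlap, and FZD4, the receptor that norrin binds, was lower too, at 28.5 CPM in LMX1B-positive and 50.1 CPM in LMX1B-negative cells. DKK2, a modulator that in other settings blocks WNT coreceptors, went the other way from the inhibitors above, at 25.7 CPM in LMX1B-positive and 48.8 CPM in LMX1B-negative cells. Its log2 ratio was -0.93 over all cells, and -0.18, -0.86 and -0.43 in SBC2, SBC3 and SBC7.

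Of 28 considered genes on the list of WNT targets, receptors and modulators, 3 were higher and 5 lower, and the list's median log2 ratio was -0.03. AXIN2 and LEF1, 2 genes that report WNT signalling, did not pass 1.5-fold, while APCDD1, NOTUM and LGR5 of the same list did, as given above. AXIN2 was at 40.6 CPM in LMX1B-positive and 30.4 CPM in LMX1B-negative cells and LEF1 at 118 and 121 CPM in the same order. None of the 5 considered WNT ligands was called, where 0.589% of all considered genes were higher and 1.17% lower. The median of the ligands was -0.31, and WNT5A, the most abundant, stood at 400 CPM in LMX1B-positive and 392 CPM in LMX1B-negative cells. WNT7A and EN1, the ectodermal genes of the dorsoventral axis, were under the level limit. WNT7A was near absent, at 0.68 CPM in LMX1B-positive and 0.83 CPM in LMX1B-negative cells. EN1 was at 6.22 and 5.65 CPM in the same order, found in 190 and 47 cells. Its level in barcodes with under 500 detected genes was 28.9 CPM, above both groups.

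Of the BMP antagonists considered, CHRDL1 and GREM1 were higher, while FST was at 12.0 CPM in LMX1B-positive and 13.1 CPM in LMX1B-negative cells and NBL1 at 55.6 and 53.9 CPM in the same order. CHRDL1, a secreted antagonist of BMP, was at 20.2, 32.0 and 23.7 CPM in the LMX1B-positive cells of SBC2, SBC3 and SBC7, against 10.2, 12.3 and 9.38 CPM in the LMX1B-negative cells. The groups did not overlap, and the log2 ratio over all cells was 1.40, from 1089 molecules in LMX1B-positive and 108 in LMX1B-negative cells. GREM1, the BMP antagonist of the posterior limb bud that keeps the apical ridge active, stood at 46.3 CPM in LMX1B-positive and 13.0 CPM in LMX1B-negative cells, a log2 ratio of 1.84. Its direction was not shared by the barcodes, since LMX1B-positive cells held 3.46, 33.2 and 88.0 CPM and LMX1B-negative cells 6.77, 13.1 and 28.7 CPM in SBC2, SBC3 and SBC7. The GREM1 values of SBC2 rest on 6 molecules in each group.

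The ligands BMP2, BMP4 and BMP5 were lower, whereas BMP6 was at 21.5 CPM in LMX1B-positive and 20.3 CPM in LMX1B-negative cells and BMP7 at 85.9 and 82.2 CPM in the same order. BMP5, which is also on the list of splanchnic mesoderm markers described below, stood at 4.04, 7.64 and 9.76 CPM in the LMX1B-positive cells of SBC2, SBC3 and SBC7, against 19.2, 23.2 and 18.8 CPM in the LMX1B-negative cells. Its groups were apart by a wide margin, with a log2 ratio over all cells of -1.33 (-1.58 to -1.08). BMP2 stood at 40.9 CPM in LMX1B-positive and 80.7 CPM in LMX1B-negative cells, a log2 ratio of -0.98, and in SBC7 it was near equal at 33.7 and 35.2 CPM in the same order. BMP4 stood at 252 CPM in LMX1B-positive and 417 CPM in LMX1B-negative cells, a log2 ratio of -0.73. It had log2 ratios of -0.18, -0.63 and 0.08 in SBC2, SBC3 and SBC7, each weaker than over all cells, which include those without a barcode. BAMBI, a pseudoreceptor that dampens BMP and TGF-beta signals, was at 93.4, 104 and 97.2 CPM in the LMX1B-positive cells of the 3 barcodes, against 185, 238 and 147 CPM in the LMX1B-negative cells, without overlap. Of 22 considered genes of the BMP list, 2 were higher and 4 lower, with a median log2 ratio of -0.17. The BMP targets ID1 and ID3 were near equal, with ID1 at 35.7 CPM in LMX1B-positive and 37.0 CPM in LMX1B-negative cells and ID3 at 272 and 288 CPM in the same order. ID2, ID4 and SMAD6 were lower within 1.5-fold, at log2 ratios of -0.42, -0.46 and -0.36, each with the same direction in SBC2, SBC3 and SBC7. MSX1, on the list too, had a log2 ratio of 0.36 without a shared direction.

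TGFB2, a TGF-beta ligand, was at 47.9, 41.5 and 55.9 CPM in the LMX1B-positive cells of the 3 barcodes, against 92.5, 108 and 116 CPM in the LMX1B-negative cells. The groups did not overlap, and the log2 ratio over all cells was -1.17 (-1.28 to -1.07). FGF7, a mesenchymal ligand for epithelial FGF receptors, was at 7.50, 8.16 and 3.68 CPM in the LMX1B-positive cells, against 30.5, 39.6 and 14.1 CPM in the LMX1B-negative cells. Its log2 ratio of -2.15 (-2.38 to -1.92) over all cells was the second lowest among the named genes with a shared direction, and the groups did not overlap. Of the 21 considered genes on the FGF list, which does not hold FGF7, only FGFR3 was called, lower at 18.5 CPM in LMX1B-positive and 27.8 CPM in LMX1B-negative cells, and it was higher in SBC2 (log2 ratio 1.24). The feedback gene DUSP6 stood at 177 CPM in LMX1B-positive and 162 CPM in LMX1B-negative cells.

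**Figure D2:**
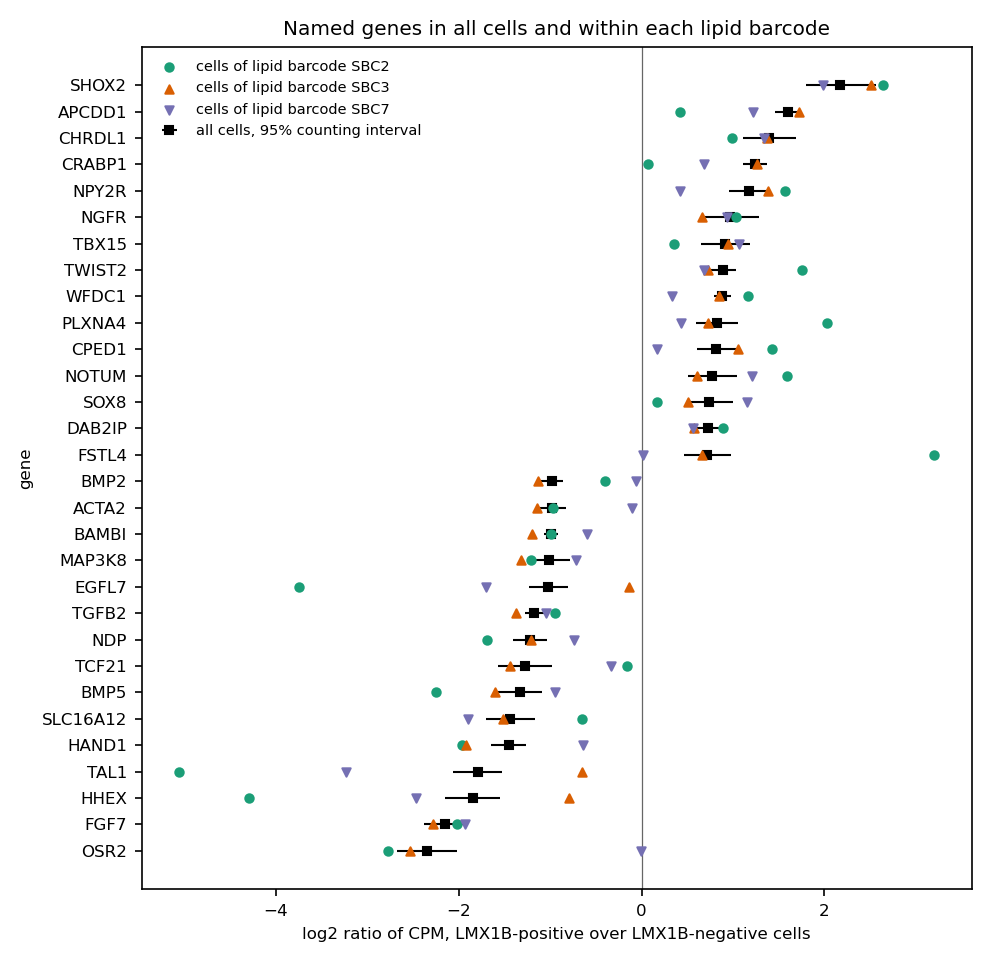
Log2 ratio of LMX1B-positive over LMX1B-negative cells (horizontal axis) for the named genes, with 1 point for the cells of each of SBC2, SBC3 and SBC7 and 1 for all cells with its counting interval. SHOX2, APCDD1 and CHRDL1 lie right of 0 in all 3 barcodes, and FGF7, NDP, TGFB2 and BAMBI left of 0, while OSR2 is at -0.01 in SBC7.

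Transcription factors of the mesenchyme moved in both directions. TBX15, a T-box factor of limb and dermal mesenchyme, was at 14.4, 24.5 and 20.9 CPM in the LMX1B-positive cells of SBC2, SBC3 and SBC7, against 11.3, 12.7 and 9.97 CPM in the LMX1B-negative cells. TWIST2, a basic helix-loop-helix factor of dermal mesenchyme, was at 95.2, 83.0 and 43.4 CPM in LMX1B-positive cells, against 28.2, 50.1 and 27.0 CPM in LMX1B-negative cells. TBX15 did not overlap between the groups, whereas TWIST2 did, since its LMX1B-positive value in SBC7 lay below its LMX1B-negative value in SBC3. The related TWIST1 was near equal, at 358 CPM in LMX1B-positive and 337 CPM in LMX1B-negative cells. SOX8, a SOX factor of early limb mesenchyme, had a log2 ratio of 0.73, at 22.5 CPM in LMX1B-positive and 13.5 CPM in LMX1B-negative cells.

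OSR2, a zinc finger factor of limb mesenchyme and joints, had the lowest ratio among the named genes with the same direction in the 3 barcodes, at 3.36 CPM in LMX1B-positive and 17.1 CPM in LMX1B-negative cells, a log2 ratio of -2.34 (-2.67 to -2.02). It was low in both groups of SBC7, at 2.92 CPM in LMX1B-positive and 2.93 CPM in LMX1B-negative cells, while the log2 ratio was -2.78 in SBC2 and -2.53 in SBC3. TBX2, a T-box factor of the limb margins, was at 135, 123 and 115 CPM in the LMX1B-positive cells of the 3 barcodes, against 185, 283 and 182 CPM in the LMX1B-negative cells, without overlap. HOXA13, the homeobox factor of the hand and foot plate and of the cloaca, was at 257, 221 and 178 CPM in LMX1B-positive cells, against 388, 420 and 229 CPM in LMX1B-negative cells, and the groups overlapped through SBC7. Of 20 considered factors along the shoulder-to-digit axis, SHOX2 and TFAP2A were higher and HOXA13 lower, with a median of 0.02. TFAP2A had a log2 ratio of 0.96 over all cells and of -0.04 in SBC2. None of 24 other considered HOX genes was called, with a median of -0.06, where 0.589% of all considered genes were higher and 1.17% lower.

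The other LIM-homeodomain genes gave 1 higher and 3 lower genes among the 11 considered on their list, which also holds their cofactors. LHX2, which acts with LMX1B in limb outgrowth, was at 61.1 CPM in LMX1B-positive and 37.2 CPM in LMX1B-negative cells, with a log2 ratio of 0.72 over all cells and of -0.55 in SBC2. ISL1, a factor of hindlimb initiation, stood at 378, 251 and 218 CPM in the LMX1B-positive cells of SBC2, SBC3 and SBC7, against 379, 438 and 295 CPM in the LMX1B-negative cells. The groups overlapped and SBC2 showed no difference, while the log2 ratio over all cells was -0.66 (-0.71 to -0.61). Its relative ISL2 was at 8.83 CPM in LMX1B-positive and 21.9 CPM in LMX1B-negative cells. ISL2 had a positive ratio in SBC2 (0.20) and SBC7 (0.54), from only 8 and 7 molecules in LMX1B-negative cells. The LIM-domain cofactor LMO2, also a blood and vessel gene, was at 25.1 CPM in LMX1B-positive and 44.6 CPM in LMX1B-negative cells, and SSBP3 was at 342 CPM in both groups.

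Along the anterior-to-posterior axis, HAND1, HHIP and TBX2 were lower and none of the 14 considered genes was higher, with a median of -0.20. HHIP, a hedgehog-binding protein, was at 8.66 CPM in LMX1B-positive and 14.4 CPM in LMX1B-negative cells, with a log2 ratio of -0.68 in SBC3. It was higher in SBC2 (log2 ratio 0.22) and SBC7 (1.15), each with only 7 molecules in LMX1B-negative cells. HAND2, a factor of the posterior limb bud, was at 506 CPM in LMX1B-positive and 633 CPM in LMX1B-negative cells, and the hedgehog target PTCH1 at 56.2 and 70.3 CPM in the same order. SHH, the ligand of the posterior organizer, was under the level limit at 12.7 CPM in LMX1B-positive and 2.41 CPM in LMX1B-negative cells. SHH is also a notochord gene, and the notochord markers FOXA2 and CHRD, under the limit too, were at 2.18 and 12.4 CPM in LMX1B-positive cells, against 0.19 and 4.17 CPM in LMX1B-negative cells. The part of notochord RNA in the SHH level was not tested.

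Retinoid genes differed in opposite directions. CRABP1, a retinoic acid-binding protein, stood at 20.2, 80.6 and 234 CPM in the LMX1B-positive cells of SBC2, SBC3 and SBC7, against 19.2, 33.5 and 146 CPM in the LMX1B-negative cells. The barcodes differed more than the groups did, SBC2 showed a log2 ratio of 0.07, and the ratio over all cells was 1.24, from 4864 molecules in LMX1B-positive and 538 in LMX1B-negative cells. CRABP2, its more abundant relative, was at 2172 CPM in LMX1B-positive and 1594 CPM in LMX1B-negative cells, under 1.5-fold. ALDH1A2 and RDH10, enzymes on the path to retinoic acid, were lower, with ALDH1A2 at 250 CPM in LMX1B-positive and 394 CPM in LMX1B-negative cells and RDH10 at 82.3 and 153 CPM in the same order. ALDH1A3, a relative of ALDH1A2 under the level limit, was at 6.43 CPM in LMX1B-positive and 4.26 CPM in LMX1B-negative cells. CYP26B1, a further retinoid gene under the limit, was at 3.72 and 12.6 CPM in the same order. Its log2 ratio was -1.76, with the same direction in SBC2, SBC3 and SBC7. ALDH1A2 was near equal in SBC2, at 245 and 248 CPM in the same order, and RDH10 was near equal in SBC2 (log2 ratio 0.0040) and SBC7 (0.06). Of 12 considered retinoid genes, 1 was higher and 2 lower, with a median of 0.04.

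Genes of axon guidance are of interest because motor axons choose between dorsal and ventral limb mesenchyme. NGFR, the low-affinity neurotrophin receptor, was at 16.2, 18.6 and 16.9 CPM in the LMX1B-positive cells of the 3 barcodes, against 7.90, 11.7 and 8.80 CPM in the LMX1B-negative cells, without overlap. Its level over all LMX1B-positive cells, 17.8 CPM, lay below the 19.5 CPM of all other cells past the limits. PLXNA4, a semaphorin receptor, was at 29.5 CPM in LMX1B-positive and 16.7 CPM in LMX1B-negative cells, below its free RNA level of 50.6 CPM. SLIT1, a guidance ligand, was at 17.2 CPM in LMX1B-positive and 10.5 CPM in LMX1B-negative cells. SEMA3D was at 18.1 and 11.4 CPM in the same order, below its free RNA level of 70.5 CPM. UNC5C, a netrin receptor, was lower, at 49.2 CPM in LMX1B-positive and 86.0 CPM in LMX1B-negative cells, with a log2 ratio of 0.18 in SBC2. Its free RNA level was 277 CPM, above both groups. The guidance list, which does not hold NGFR, thus had 3 higher genes and 1 lower gene among 21 considered, with a median of -0.11.

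None of 13 considered Eph receptors and ephrins was called, where 0.589% of all considered genes were higher and 1.17% lower. Their median was -0.17. EPHA4, a receptor by which motor axons of the limb sort dorsally, was at 49.4 CPM in LMX1B-positive and 55.4 CPM in LMX1B-negative cells. EPHA7 was at 23.8 CPM and 30.4 CPM, EFNA5 at 30.1 CPM and 25.03 CPM, and the guidance cue NTN1 at 87.2 CPM and 100 CPM, each with LMX1B-positive cells first. EPHA4, EPHA7, EFNA5 and NTN1 did not share a direction in the barcodes. NTN1 had log2 ratios of 1.82, -0.50 and 1.21 in SBC2, SBC3 and SBC7, from 14, 685 and 45 molecules in LMX1B-negative cells. EPHA4 had log2 ratios of 0.43, -0.39 and 0.93 in the same barcodes. EPHB2 and EFNB2 had the widest log2 ratios of the 13, at -0.37 and -0.36.

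**Figure D3:**
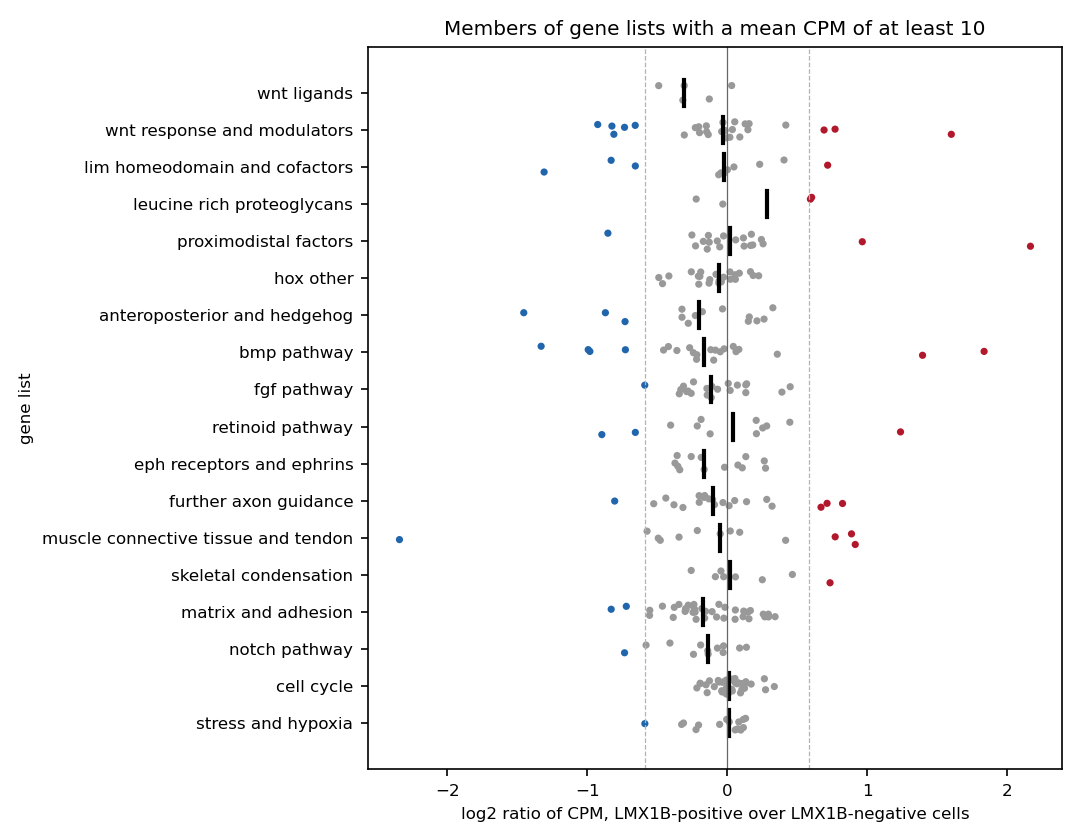
Log2 ratio of LMX1B-positive over LMX1B-negative cells (horizontal axis) of each considered gene, by gene list (vertical axis), with the median of each list and lines at 1.5-fold. List medians lie between -0.31 and 0.28 for the developmental lists, and single genes, not whole lists, pass the lines.

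Among genes of connective tissue and muscle support, HGF, the ligand that calls muscle precursors into the limb, stood at 28.8, 58.3 and 76.7 CPM in the LMX1B-positive cells of SBC2, SBC3 and SBC7, against 39.5, 33.9 and 63.3 CPM in the LMX1B-negative cells. The groups overlapped and SBC2 went the other way, while the log2 ratio over all cells was 0.77. TBX15 and TWIST2 were the other higher genes and OSR2 the lower one of 13 considered, and the median was -0.05. The small proteoglycans DCN, KERA and LUM, secreted organizers of collagen fibrils, gave a split. DCN was at 86.7 CPM in LMX1B-positive and 57.5 CPM in LMX1B-negative cells and KERA at 13.4 and 8.81 CPM, both just past the limit, while LUM was at 49.3 and 57.5 CPM, all in the same order. Of 4 considered genes of that list, 2 were higher and the median was 0.28, with DCN at a log2 ratio of -0.02 in SBC7.

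The remaining lists gave little difference. Of 8 considered genes of skeletal condensation, SOX8 alone was called, and SOX9, the cartilage master factor, was at 26.4 CPM in LMX1B-positive and 19.1 CPM in LMX1B-negative cells, while the median was 0.02. Of 38 matrix and adhesion genes, ITGA8 and ALCAM were lower and none higher, with a median of -0.17. The integrin subunit ITGA8 was at 21.9 CPM in LMX1B-positive and 36.1 CPM in LMX1B-negative cells, and the adhesion molecule ALCAM at 48.7 and 86.6 CPM in the same order. The Notch ligand JAG1 was lower, at 40.3 CPM in LMX1B-positive and 67.1 CPM in LMX1B-negative cells, and was the 1 gene called of 12 on its list, whose median was -0.14. None of 37 considered cell cycle genes was called, where 0.589% of all considered genes were higher and 1.17% lower. Their median was 0.01, and PCNA, the replication clamp, was at 910 CPM in LMX1B-positive and 847 CPM in LMX1B-negative cells. Of 15 stress genes 1 was called, the early-response factor ATF3, at 28.5 CPM in LMX1B-positive and 42.8 CPM in LMX1B-negative cells, and the median was 0.01. None of the 3 W-linked genes with a column reached the level limit, and their sum was 13.9 CPM in LMX1B-positive and 24.6 CPM in LMX1B-negative cells, and the part of the sex of the embryos in the results was not tested.

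Several higher genes outside these lists shared a direction in the 3 barcodes. NPY2R, a receptor for neuropeptide Y, was at 36.9, 38.6 and 36.8 CPM in the LMX1B-positive cells of SBC2, SBC3 and SBC7, against 12.4, 14.8 and 27.6 CPM in the LMX1B-negative cells, with no overlap. WFDC1, a small secreted protein, was at 195, 188 and 167 CPM in LMX1B-positive cells, against 86.9, 104 and 133 CPM in LMX1B-negative cells. It too had no overlap, and its level of 173 CPM over all LMX1B-positive cells was the highest among the 15 higher genes. CPED1, DAB2IP and FSTL4 had log2 ratios of 0.82, 0.73 and 0.72, and those of FSTL4 ran between 0.01 in SBC7 and 3.20 in SBC2. Among the lower genes, MAP3K8, a kinase, was at 12.7, 11.2 and 11.03 CPM in LMX1B-positive cells, against 29.3, 28.1 and 18.2 CPM in LMX1B-negative cells, without overlap. SLC16A12, a transporter, was at 6.96 CPM in LMX1B-positive and 18.8 CPM in LMX1B-negative cells, a log2 ratio of -1.43.

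The named genes were next set against the number of LMX1B molecules in a cell, after each of 1298 limb cells was thinned to 20000 molecules. The 197 shallower limb cells were left out, 64 of them LMX1B-positive. The cells held 0, 1, 2 to 4, 5 to 9, or 10 or more LMX1B molecules after thinning, in bins of 395, 164, 280, 254 and 205 cells. Since the outer bins were cut from the same cells as the groups, only the order within them adds to the comparison.

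Of the 15 higher genes, 9 rose at all 4 steps, and of the 15 lower genes 11 fell at all 4. These genes were picked for their ratio between the groups, and the same count over all considered genes was not made. SHOX2 stood at 6.46, 8.84, 17.3, 36.4 and 55.9 CPM over the 5 bins, and APCDD1 at 50.9, 57.3, 100, 156 and 238 CPM. CHRDL1 stood at 8.99, 15.2, 24.3, 36.6 and 51.2 CPM. In these genes the level kept rising among cells that were all LMX1B-positive. FGF7 stood at 30.5, 22.6, 10.7, 4.33 and 1.71 CPM, and NDP at 35.9, 23.8, 15.2 and 2.20 CPM in the first 3 bins and the last. TGFB2 stood at 95.9 CPM in the bin with 0 molecules and at 25.1 CPM in the bin with 10 or more. NGFR was an exception among the higher genes, with 9.37, 20.1, 19.8, 12.0 and 14.4 CPM over the bins, and FSTL4, TBX15, NOTUM, SOX8 and DAB2IP each broke the order at 1 step. Cells with 1 LMX1B molecule lay between the bins around them in FGF7, SHOX2 and APCDD1, nearer to the bin with 0.

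**Figure D4:**
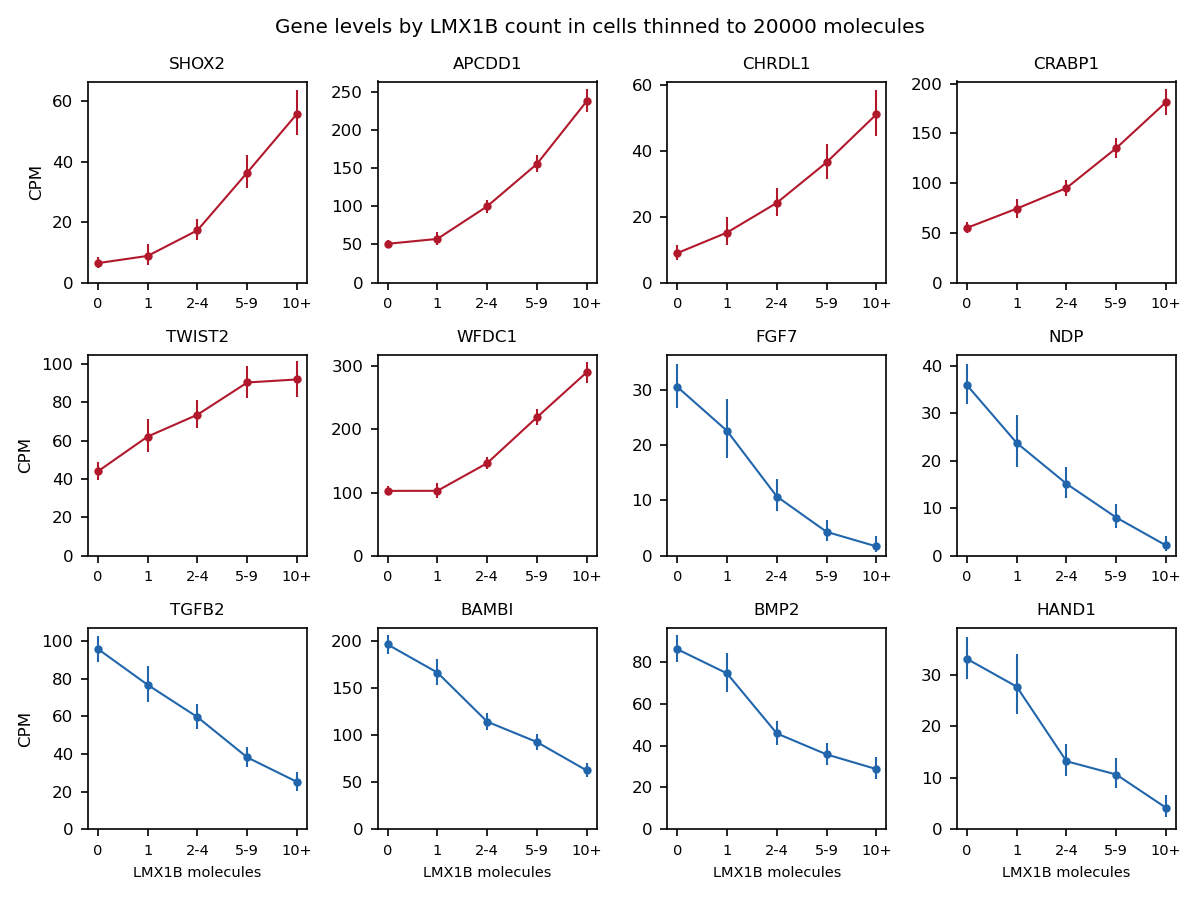
Level (vertical axes, CPM) of 12 named genes by the LMX1B molecules of a cell after thinning to 20000 molecules (horizontal axis, bins low to high), with counting intervals. SHOX2 runs between 6.46 CPM in the bin with 0 molecules and 55.9 CPM in the bin with 10 or more, and FGF7 between 30.5 and 1.71 CPM over the same bins.

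Markers of other cell types differed between the groups in a few lists. The 7 splanchnic mesoderm markers with a column, genes of the gut wall and body cavity lining, summed to 36.8 CPM in LMX1B-positive cells, 93.2 CPM in LMX1B-negative cells and 186 CPM in all other cells past the limits. All 3 of them that reached the level limit, HAND1, HLX and BMP5, were lower, and more than 1 molecule per 10000 from the list was held by 72 LMX1B-positive cells (7.64%) and 97 LMX1B-negative cells (33.9%). HAND1 was at 12.8 CPM in LMX1B-positive and 35.1 CPM in LMX1B-negative cells, and HLX at 7.50 and 20.4 CPM in the same order. TCF21, a visceral mesoderm factor that is not on the list, was at 6.02 CPM in LMX1B-positive and 14.6 CPM in LMX1B-negative cells. Without the cells past that limit, chosen after the values were seen, 871 LMX1B-positive and 189 LMX1B-negative cells were left, with 46 higher and 84 lower genes. There FGF7 had a log2 ratio of -2.32 and OSR2 of -2.22, while BMP5 had -0.91, HAND1 -0.62, TCF21 -0.63 and HLX -0.38. BMP5, HAND1 and HLX were among the markers that removed the cells, which set part of their change in advance. FSTL4, DAB2IP and the smooth muscle actin ACTA2 then fell inside 1.5-fold, with ACTA2 at -0.52, as did LMO2, KERA, HHIP, SEMA3D, ITGA8, ATF3, the keratin KRT18 and HLX.

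Blood and vessel genes rested on a few cells, above all in the LMX1B-negative group. HHEX, TAL1 and EGFL7, genes of blood and vessel precursors, had log2 ratios of -1.85, -1.79 and -1.02, and the 5 richest LMX1B-negative cells held 74.6%, 78.8% and 77.6% of their molecules in that group. Without the 109 LMX1B-positive and 35 LMX1B-negative cells that carried blood or vessel markers, a setting chosen after the values were seen, these ratios were -0.40, 0.0011 and 0.24. TAL1 and EGFL7, but not HHEX, were among the markers that removed the cells, which set part of their change in advance. LMO2, KERA, FGFR3, SLIT1, KRT18, HBA1 and HBAD also fell inside 1.5-fold in that setting, and 47 higher and 80 lower genes were counted. The globin genes HBA1 and HBAD were called lower, at log2 ratios of -0.67 and -0.65. The richest LMX1B-negative cell held 87.9% and 86.4% of their molecules in that group. The richest LMX1B-positive cell held 44.4% and 41.9% of those in its own group. Red cell markers summed to 446 CPM in LMX1B-positive and 665 CPM in LMX1B-negative cells, and 3 of 5 considered were lower. The 11 endothelial markers, with CLDN5 at 0 in both groups, summed to 144 and 161 CPM with EGFL7 lower, and the 9 macrophage markers to 12.7 and 28.5 CPM, with C1QA and C1QB at 0 in LMX1B-negative cells, both in the same order.

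**Figure D5:**
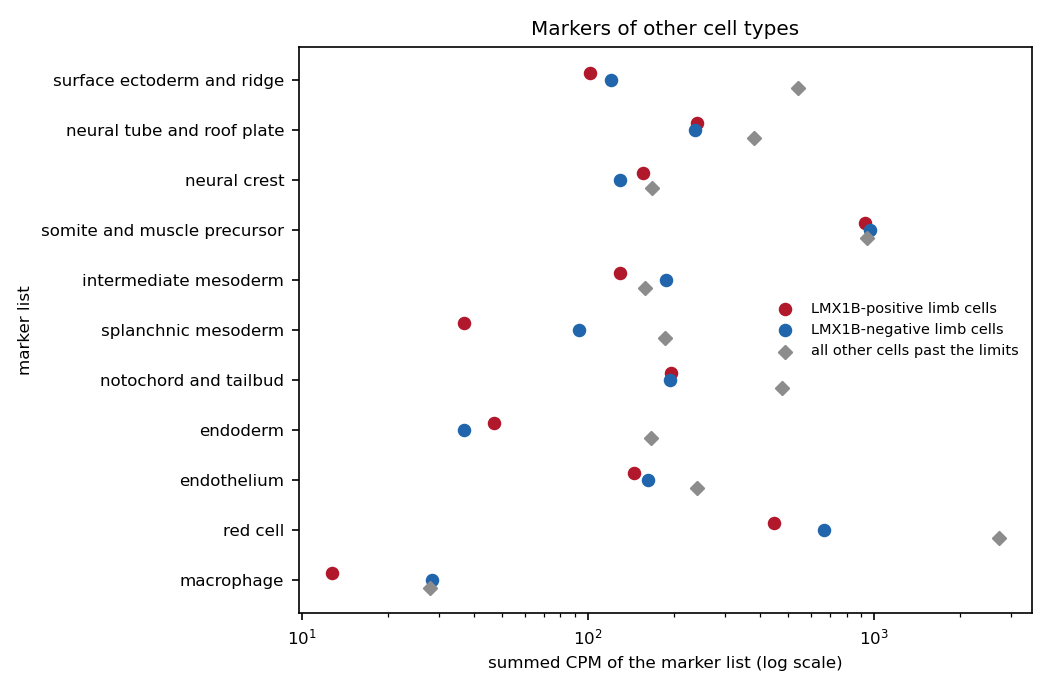
Summed level (horizontal axis, CPM, log scale) of the marker list of each other cell type (vertical axis) in LMX1B-positive cells, LMX1B-negative cells and all other cells past the limits. Splanchnic and macrophage markers lie furthest apart between both limb groups, at 36.8 and 12.7 CPM in LMX1B-positive cells and 93.2 and 28.5 CPM in LMX1B-negative cells.

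The other lists were closer over all cells, and their part in the results was not tested. Intermediate mesoderm markers summed to 129 CPM in LMX1B-positive and 187 CPM in LMX1B-negative cells, with WT1 the 1 called gene of 3 considered, at 36.8 and 59.7 CPM in the same order. Surface ectoderm and ridge markers summed to 101 CPM in LMX1B-positive and 120 CPM in LMX1B-negative cells, with KRT18 lower of 3 considered and KRT5 at 0 in LMX1B-negative cells. Neural tube and roof plate markers, of interest because the roof plate holds LMX1B, summed to 241 and 236 CPM, again LMX1B-positive first. ELAVL4, at 93.4 and 88.0 CPM, and TUBB3, at 74.1 and 76.0 CPM, gave the largest parts. Under the level limit, LMX1A was at 2.66 and 1.30 CPM and OLIG2 at 4.33 and 1.02 CPM, with a shared direction in the 3 barcodes. WNT1, at 5.49 and 4.63 CPM, and SOX1, at 7.30 and 7.69 CPM, had no shared direction. Neural crest markers summed to 155 and 130 CPM in the same order. No gene was called of 4 and 1 considered on these lists. Somite and muscle precursor markers summed to 930 CPM in LMX1B-positive and 963 CPM in LMX1B-negative cells, with 0 of 8 called. Notochord and tailbud markers summed to 194 CPM in both groups over all cells, with MNX1 higher of 4 considered at 15.2 and 8.34 CPM. Within SBC2, SBC3 and SBC7 they were not equal, at 122, 230 and 120 CPM in LMX1B-positive cells, against 307, 167 and 307 CPM in LMX1B-negative cells. TBXT, the most abundant of them, had log2 ratios of -2.04, 0.18 and -2.10 in these barcodes. Endoderm markers summed to 46.8 CPM in LMX1B-positive and 36.8 CPM in LMX1B-negative cells with 0 of 1 called.

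Free RNA was high for several of the lower genes. Of the 15 lower named genes, 8 had a higher level in barcodes with under 500 genes than in the LMX1B-negative cells, among them BMP5 at 64.7 CPM, NDP at 50.6 CPM and HAND1 at 60.9 CPM. Of the 15 higher named genes, PLXNA4 alone had a free RNA level above that of the LMX1B-positive cells. Among the higher genes named only from the lists, so did SEMA3D, MNX1 and TFAP2A, with free RNA at 70.5, 37.0 and 77.3 CPM. WIF1, LHX2, DCN, KERA, GREM1, SLIT1 and HGF did not. FGF7 stood at 19.5 CPM and TGFB2 at 90.3 CPM in those barcodes, both between the LMX1B-positive and the LMX1B-negative level, and SHOX2 at 4.84 CPM, below both. The part of free RNA in these differences was not tested. In all other cells past the limits, NGFR alone of the 15 higher named genes stood above its LMX1B-positive level. Of the 15 lower named genes, 9 stood above their LMX1B-negative level there, and the part of such cells was not tested.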

How the data were processed

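The authors deposited 1 table of molecule counts per gene and cell, not normalized. Per the file headers, reads were counted with BD's own Rhapsody pipeline (version 1.11), using GRCg7b and Ensembl release 107, intronic reads were counted too, and 60000 cells were asked for. The submitters' processing notes name R 3.6.2 and Seurat. Of 28190 gene columns, 15073 carry only an identifier. Strand use was not given in the sources used here, so overlapping genes may share molecules.

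Counts were summed over the cells of each group (Python 3.11.15, numpy 2.4.6, scipy 1.17.1, pandas 2.3.3, matplotlib 3.10.9) and given as CPM with exact Poisson intervals. Ratios have exact Clopper-Pearson intervals, and all intervals are at 95%. A lipid barcode was assigned at 5 times its background and 3 times the next. The summing and calling were checked on simulated data.

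Named genes were the 15 highest and 15 lowest ratios among genes with a symbol past 1.5-fold and in the same direction in SBC2, SBC3 and SBC7, the called, the most abundant and the dorsoventral genes of each list, and the neighbours of LMX1B. Members and lists were chosen with earlier results of these data known. The counts were made again under 17 other settings of depth, limits, weights, scaling, filters and barcodes, and under 2 chosen after seeing the data.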

Additional observations from a re-analysis of the deposited data

Results flagged for a closer look

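Signal was found in data that no comparison used. Besides SBC2, SBC3 and SBC7, the table has columns for the lipid barcodes SBC4, SBC5 and SBC8, and no cell was assigned to them. Over the 1495 limb bud mesenchyme cells, SBC4 summed to 539 molecules, SBC5 to 387 and SBC8 to 435, against 257533 for SBC2, 1565409 for SBC3 and 374038 for SBC7.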

How the results depend on the processing

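The 49 higher and 97 lower genes became 62 and 161 with cells thinned to 20000 molecules, 454 and 613 at 10% mitochondrial molecules or less (109 LMX1B-positive and 12 LMX1B-negative cells), 9 and 27 from 50 CPM, 158 and 354 from 2 CPM, 14 and 23 at 2-fold, 613 and 699 in SBC2, 207 and 221 in SBC7, and 89 and 103 with equal weight for the barcodes. Under the other alternatives the counts stayed within 1.5 times, between 46 and 67 higher and between 80 and 131 lower, and the scaling factor of TMM was 0.979. Of the 30 genes named by ratio, 24 kept their sign in every setting, and of the 35 other called named genes 8 did. The 30 were chosen for a shared direction in SBC2, SBC3 and SBC7, and the settings include each of these barcodes alone. The naming rule thus set part of this contrast in advance.

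Log2 ratios changed sign as follows, and the cause was not tested. At 10% mitochondrial molecules or less, they were 0.60 for FGF7, 0.97 for HHEX, 0.64 for BMP5, 3.60 for EGFL7, 0.69 for ACTA2, 0.21 for FZD4, 2.11 for LMO2, -0.22 for DCN, 0.32 for TBX2, 0.13 for ALDH1A2, 0.18 for RDH10, -0.17 for SEMA3D, 0.45 for JAG1, 4.44 for HBA1 and 2.61 for HBAD. Without cells with blood or vessel markers (TAL1 and EGFL7 among them), they were 0.0011 for TAL1 and 0.24 for EGFL7. In that setting, chosen after seeing the data, they were 0.18 for LMO2, 0.24 for HBA1 and 0.40 for HBAD. In SBC2 they were 0.10 for RSPO3, -0.55 for LHX2, 0.20 for ISL2, -0.035 for TFAP2A, 0.22 for HHIP, -0.97 for GREM1, 1.24 for FGFR3, 0.0040 for RDH10, 0.18 for UNC5C, -0.45 for HGF, 0.25 for ALCAM, 0.39 for KRT18, 0.15 for WT1, -1.52 for MNX1 and 0.35 for HBA1. In SBC7 they were 0.059 for LGR5, 0.54 for ISL2, -0.018 for DCN, 1.15 for HHIP, 0.079 for BMP4, 0.058 for RDH10, 0.13 for ATF3, 0.059 for WT1, 0.42 for HLX, -0.18 for MNX1, 0.79 for HBA1 and 0.95 for HBAD. HHIP also changed to 0.035 with stricter limb limits, 0.23 with equal weight for the barcodes and 0.34 without cells with splanchnic markers, which was chosen after seeing the data. HBA1 was 0.052 with equal weight, and after thinning SEMA3D was -0.55 and MNX1 -0.69.

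No paired analysis was possible because no result comes from a test and each library is 1 replicate, and the groups were set against each other within SBC2, SBC3 and SBC7 as values only. The 21 LMX1B-negative cells of SBC2 and 42 of SBC7 limit what those barcodes can show for genes near 10 CPM.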

Other observations

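Some genes outside the naming rule were chosen after their values were seen. ZIC2, a zinc finger factor of the neural tube and dorsal mesoderm, was at 112 CPM in LMX1B-positive and 52.1 CPM in LMX1B-negative cells, but lower in SBC2 (log2 ratio -0.42). HTRA1, a secreted protease, was at 16.3 CPM in LMX1B-positive and 6.02 CPM in LMX1B-negative cells, and lower in SBC2 (-1.52). EVX1, a homeobox gene next to HOXA13 on chromosome 2, was at 116, 101 and 100 CPM in the LMX1B-positive cells of SBC2, SBC3 and SBC7, against 239, 192 and 184 CPM in the LMX1B-negative cells, without overlap. APCDD1L, the relative of APCDD1, went the other way from it, at 5.51 CPM in LMX1B-positive and 26.0 CPM in LMX1B-negative cells, with no difference in SBC7 (0.06). CCL26, a chemokine, was found in 12 LMX1B-positive and 3 LMX1B-negative cells, at 0.85 CPM and 19.7 CPM in the same order, and 1 LMX1B-negative cell held 72.3% of its molecules in that group.

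Columns with an identifier only included the highest ratio of all. ENSGALG00010028910 was at 23.0 CPM in LMX1B-positive cells and 0.93 CPM in LMX1B-negative cells, from 950 and 10 molecules, a log2 ratio of 4.63 (3.75 to 5.70). ENSGALG00010001217 was at 62.3, 72.0 and 13.3 CPM in the LMX1B-positive cells of SBC2, SBC3 and SBC7, against 6.77, 10.9 and 1.17 CPM in the LMX1B-negative cells, and SBC7 was the lowest of the 3 in both groups. ENSGALG00010020003 was at 15.2 CPM in LMX1B-positive and 76.1 CPM in LMX1B-negative cells, and at 150.4 CPM in barcodes with under 500 detected genes. No name or position for these identifiers is given here.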
